A study of Mus musculus with 10 samples.

Results

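Dusp7, 5 further phosphatases of MAP kinases and 4 sprouty and Spred genes were examined in MEL cells, a mouse erythroleukemia line that grows in culture as virus-transformed precursors of red cells. All probe sets annotated with the symbol Dusp1, Dusp2, Dusp4, Dusp5, Dusp6, Dusp7, Spry1, Spry2, Spred1 or Spred2 were taken, which gave 24 of the 45101 probe sets on the array. Each of 4 subclones (FBB1.5 and FBB1.7 among them, besides FBB1.10 and FBB1.11) carries the bacterial biotin ligase BirA and a stably introduced BCL11A with a FLAG and biotin tag, and was measured on 2 Affymetrix arrays. The parental Mel-BirA line, also on 2 arrays, carries BirA alone, so all 5 lines share the ligase. A subclone is a single clone, and which of its differences come with the tagged protein and which with the clone cannot be told apart. The members were chosen by their measured difference between tagged and parental cells, above all that of Dusp7, so values against the parental line are given below as a description, and tests are given for differences among the 4 subclones.

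Signals from Kit, the erythropoietin receptor and other receptors pass through Ras, Raf and MEK to the kinase ERK, which must be phosphorylated on a threonine and a tyrosine to be active. Dual-specificity phosphatases remove both phosphates. Dusp6 and Dusp7 are cytoplasmic and prefer ERK, whereas Dusp1, Dusp2, Dusp4 and Dusp5 are nuclear proteins whose genes respond quickly to growth signals. Sprouty and Spred proteins act further up, on the path that leads to Ras and Raf. Several of these genes are induced by ERK itself and so form a negative feedback loop.

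Of the 10 genes, 6 gave a signal above the background level, and Dusp1, Dusp4, Dusp5 and Dusp6 did not. The background level is the median of the whole table, an intensity of 30.5, and a probe set was tested when it exceeded that in at least 2 of the 10 arrays. The 14 member probe sets that passed comprise 1 of Dusp2, 2 of Dusp7, 7 of Spred1, 2 of Spred2, 1 of Spry1 and 1 of Spry2. These 4 phosphatase genes had 1 probe set each and lay at or below background on all 10 arrays. They were left out of the main tests, and neither a difference nor the lack of one is read from them. Their highest values were 29.5 for Dusp4, 27.9 for Dusp6, 18.6 for Dusp1 and 14.1 for Dusp5. Probe sets differ in how well they bind. Intensities of different probe sets are set together here only to pick the brightest of a gene and in sums over cell type markers.

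**Figure D1:**
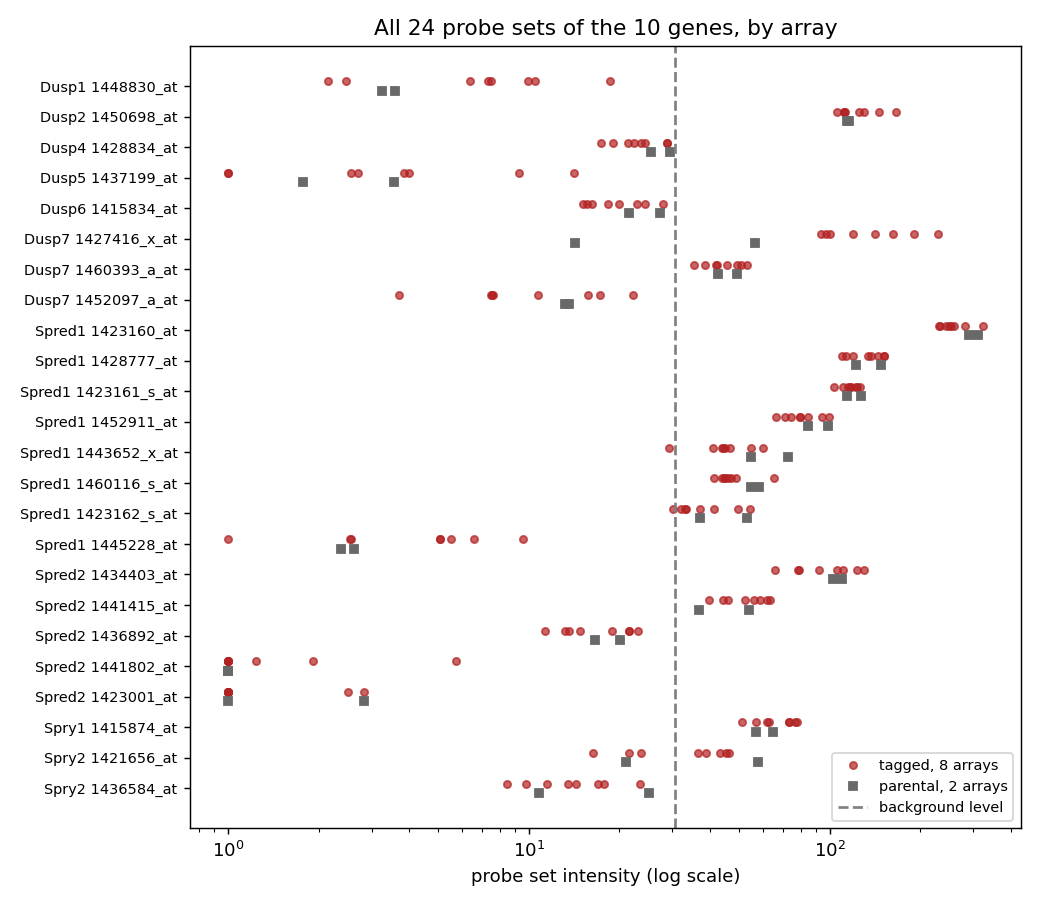
Intensity of all 24 probe sets of the 10 genes on a log axis, with the 8 tagged arrays as circles above the 2 parental arrays as squares; the dashed line is the background level of 30.5. The 4 probe sets of Dusp1, Dusp4, Dusp5 and Dusp6 lie left of the line on every array, and Dusp7 1427416_x_at is the only tested one whose tagged arrays all lie above both parental arrays.

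The arrays were alike in level, with median intensities from 29.6 to 31.6. The 3'/5' ratio of the actin controls, which reflects RNA quality, was 1.47 on the first FBB1.5 array and 1.80 on the second parental array, against 1.06 to 1.22 on the other 8. Of 12 listed erythroid marker genes 11 were read, and 9 of these were above background on all 10 arrays, which met the labelled cell type. Epb42 was above background only on the FBB1.5 arrays (45.7 and 47.5) and the first FBB1.11 array (31.4). The anion exchanger gene Slc4a1, a late red cell marker, was at or below background throughout. No label says whether the 2 arrays of a line stem from separate cultures, so the p-values cover array-to-array spread alone, and that spread may be technical.

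The stretches before the start sites are shown for the members whose values differed most between lines, and for the 1 member with a match to the preferred letters of BCL11A. The sequences are the 250 bases before the RefSeq start (build GRCm38.p6), 5′ to 3′ in the direction of the gene: chr9:106368382-106368631 on the plus strand for Dusp7, chr11:19924192-19924441 on the plus strand for Spred2, chr2:127335909-127336158 on the plus strand for Dusp2 and chr19:53528895-53529144 on the plus strand for Dusp5. The Dusp7 window reaches into the annotated span of the gene, which has a further start upstream. Capitals mark the BCL11A letters TGACCA on either strand.
Dusp7 upstream window: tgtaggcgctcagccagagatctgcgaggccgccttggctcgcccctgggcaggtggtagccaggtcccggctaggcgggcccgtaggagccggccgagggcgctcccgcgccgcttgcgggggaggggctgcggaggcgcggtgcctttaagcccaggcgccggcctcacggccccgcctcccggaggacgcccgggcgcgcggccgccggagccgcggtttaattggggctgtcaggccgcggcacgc
Spred2 upstream window: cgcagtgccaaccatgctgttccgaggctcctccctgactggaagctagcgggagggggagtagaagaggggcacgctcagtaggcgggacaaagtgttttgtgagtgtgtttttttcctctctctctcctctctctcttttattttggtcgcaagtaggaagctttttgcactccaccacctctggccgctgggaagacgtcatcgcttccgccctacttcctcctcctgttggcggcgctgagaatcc
Dusp2 upstream window: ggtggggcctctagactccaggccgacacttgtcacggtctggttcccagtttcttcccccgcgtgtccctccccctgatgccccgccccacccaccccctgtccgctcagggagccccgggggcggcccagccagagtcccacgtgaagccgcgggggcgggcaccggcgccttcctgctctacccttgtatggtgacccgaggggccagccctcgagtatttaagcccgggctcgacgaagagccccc
Dusp5 upstream window: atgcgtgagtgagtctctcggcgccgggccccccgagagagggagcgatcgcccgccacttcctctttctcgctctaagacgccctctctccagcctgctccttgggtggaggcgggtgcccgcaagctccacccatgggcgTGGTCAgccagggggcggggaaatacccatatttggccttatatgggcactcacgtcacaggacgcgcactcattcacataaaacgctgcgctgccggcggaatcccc
Of the 9 members with such a window in the table, 1 held TGACCA, namely Dusp5, against 11.4% of 32851 windows of the same length. Dusp1, a gene known to be driven by cyclic AMP, held 1 copy of TGACGTCA, the cyclic AMP response element, which 1.55% of all windows hold. None of the 9 held AGATAA, letters that GATA factors bind, or CCGGAAGT, which ETS factors bind, and 9.99% and 2.88% of all windows did. Both strands were searched, and TGACCA shares its first 4 letters with TGACGTCA, though no stretch matches both at one start. Over the 9 windows 56.0 to 77.2% of bases were G or C, above the median of 52.4% over all windows, and that of Dusp7 was the highest. A match is a description of letters, and its absence from these windows says nothing of the factor.

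Dusp7, which encodes a cytoplasmic ERK phosphatase (chr9:106368560-106375724 in build GRCm38.p6), is the gene with the widest gap from the parental line among the members, and the gap is seen on 1 of its 3 probe sets. Dusp7 1427416_x_at read 119 and 229 on the FBB1.5 arrays, 100.1 and 97.5 on the FBB1.7 arrays, 93.6 and 191 on the FBB1.10 arrays, and 163 and 141 on the FBB1.11 arrays, against 56.3 and 14.2 in parental cells. All 8 tagged arrays lay above both parental arrays, as they did for 5.22% of all tested probe sets. No member lay below both parental arrays on all 8, as 4.24% of all tested probe sets did. The second parental array was below background and was raised to that level for a fold over the mean log2 of both parental arrays. This fold was at least 3.99 for FBB1.5, 2.38 for FBB1.7, 3.22 for FBB1.10 and 3.66 for FBB1.11. These bounds hold for the parental mean, which rests in part on the second array. Against the first parental array alone the folds are smaller. The lowest tagged array, FBB1.10 1, stood 1.66-fold above the brighter parental array. On the log2(intensity + 16) scale, on which all differences below are given, the mean of the subclones minus parental was 1.7 ± 0.27 (SE), and it was 1.07 without the second parental array and 2.33 without the first. These values chose the gene and support nothing further.

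The arrays with the 2 highest actin ratios each held the lower Dusp7 1427416_x_at value of their parental and FBB1.5 pair. In the parental pair the array with the ratio of 1.80 read 14.2 and the one with 1.22 read 56.3. In FBB1.5 the array with the ratio of 1.47 read 119 and the one with 1.14 read 229. The FBB1.10 arrays, with ratios of 1.12 and 1.17, read 93.6 and 191. Pearson's r between the signal and the ratio was -0.71 over all 10 arrays and 0.08 over the 8 tagged ones, as a description of arrays of which pairs share a line. The difference from parental was 0.95 with the log2 actin ratio as a covariate and 1.18 without the 2 arrays of high ratio, both fits chosen after the data were seen. The part of RNA quality in the Dusp7 difference was not tested further.

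The other Dusp7 probe sets did not show the gap. Dusp7 1460393_a_at read 35.3 to 53.3 in the 8 tagged arrays, with a median of 43.9, against 42.4 and 49.2 in parental cells, a difference of -0.03 ± 0.14 (SE). The groups overlapped throughout. Dusp7 1452097_a_at lay below background on all 10 arrays, at 3.69 to 22.1 in tagged and 13.2 and 13.7 in parental cells. By the array maker's naming, the ending _x_at marks a probe set with probes that may also bind other transcripts, and which transcripts 1427416_x_at reads was not analysed here.

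**Figure D2:**
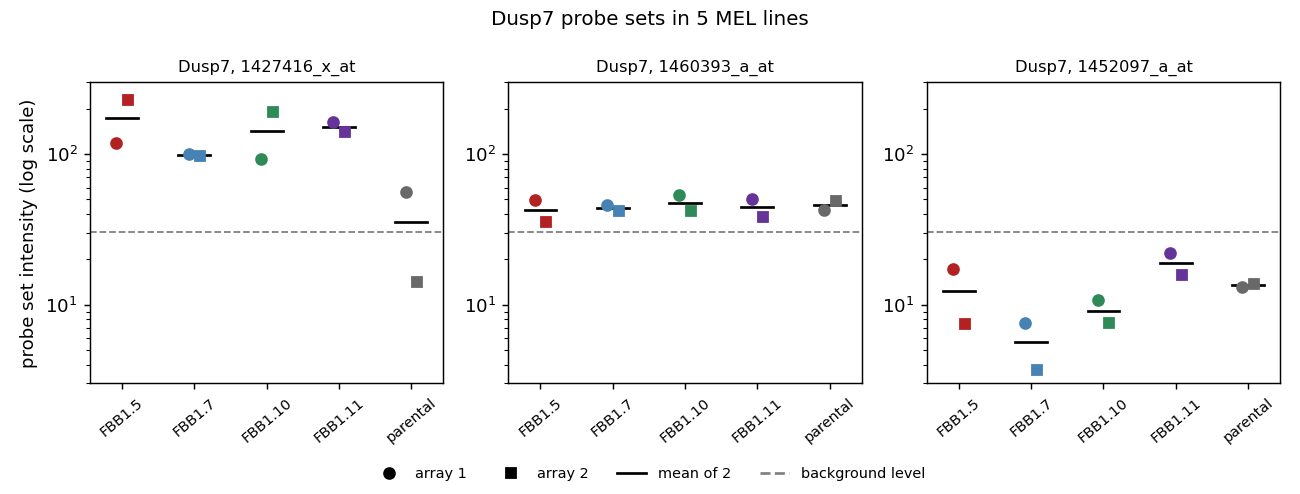
Intensity of the 3 Dusp7 probe sets on a log axis in the 4 subclones and the parental line, with circles and squares for the 2 arrays of a line, black bars for their mean and a dashed line at the background level. Only 1427416_x_at separates tagged from parental arrays, and its parental arrays stand at 56.3 and 14.2.

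Among the subclones themselves, Dusp7 1427416_x_at ran from FBB1.7 (98.8 ± 1.80, SD, n = 2) through FBB1.10 (142 ± 68.6) and FBB1.11 (152 ± 15.2) to FBB1.5 (174 ± 77.9). Neighbours in this order did not differ beyond their spread. Differences among the 4 subclones did not pass limma's moderated F test (adjusted p = 0.58), and the widest pair, FBB1.5 minus FBB1.7, stood at 0.67 with a 95% interval from -0.07 to 1.40, which leaves room for a 2-fold difference and for none. Of the 3 genes before and the 3 after Dusp7 on chromosome 9 that were tested, none passed between the subclone mean and parental. Their differences ran from -0.10 for Abhd14b to 0.46 ± 0.17 (SE) for Acy1, an aminoacylase gene (limma, adjusted p = 0.16).

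Spred2, which encodes an inhibitor of the Ras to Raf step (chr11:19924442-20024026), was the member gene that differed between the subclones. Spred2 1434403_at read 130 and 124 on the FBB1.5 arrays, 66.0 and 78.2 on the FBB1.7 arrays, 79.2 and 92.4 on the FBB1.10 arrays and 106 and 111 on the FBB1.11 arrays, against 102 and 109.9 in parental cells. FBB1.5 was high and FBB1.7 low, and the parental pair lay between them and overlapped FBB1.11. The F test gave an adjusted p of 0.011 in limma, and Spred2 was the 1 of 14 member probe sets that passed it, against 7.24% of all tested probe sets, a share near that of the members. Without the first FBB1.5 array or without the first FBB1.7 array the adjusted p was 0.054 and 0.075, and no member probe set then passed.

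Taken in pairs, Spred2 1434403_at was 1.62-fold higher in FBB1.5 than in FBB1.7, a difference of 0.70 ± 0.13 (SE, limma, adjusted p = 0.0029), which missed the threshold only without the first FBB1.7 array among the arrays left out (adjusted p = 0.051). FBB1.5 stood 0.49 above FBB1.10 (adjusted p = 0.044) and FBB1.7 fell by 0.50 relative to FBB1.11 (adjusted p = 0.046). These smaller differences are close to the threshold: the first passed in 2 and the second in 3 of the 10 fits with an array left out. In order of level the lines ran FBB1.7 (72.1 ± 8.62, SD, n = 2), FBB1.10 (85.8 ± 9.31), parental (106 ± 5.42), FBB1.11 (108 ± 3.66) and FBB1.5 (127 ± 4.44). FBB1.7 and FBB1.10 did not pass against each other (adjusted p = 0.62), where 0.124% of all tested probe sets did. Nor did FBB1.10 and FBB1.11 (adjusted p = 0.54, 0.267% of all) or FBB1.5 and FBB1.11 (adjusted p = 0.66, 1.32% of all). Over 6 pairs and 14 probe sets, 4 of 84 combinations passed, 3 of them of this Spred2 probe set. Over all tested probe sets 9.44% passed for FBB1.5 against FBB1.7, 3.92% for FBB1.5 against FBB1.10 and 3.29% for FBB1.7 against FBB1.11.

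The probe sets of Spred2 disagreed. Spred2 1441415_at read 39.7 to 63.5 in the 8 tagged arrays, with a median of 54.1, against 53.8 and 36.9 in parental cells. Its difference between FBB1.5 and FBB1.7 was -0.15, with a 95% interval from -0.56 to 0.27, and it did not pass the F test between subclones (adjusted p = 0.88). The remaining 3 Spred2 probe sets lay below background on all 10 arrays, with 23.1 as their highest value. Of the 6 tested genes next to Spred2 on chromosome 11, 5 did not pass between FBB1.5 and FBB1.7. Rab1a, a small GTPase gene of the secretory path, ran the other way and fell by 0.44 (adjusted p = 0.0037).

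**Figure D3:**
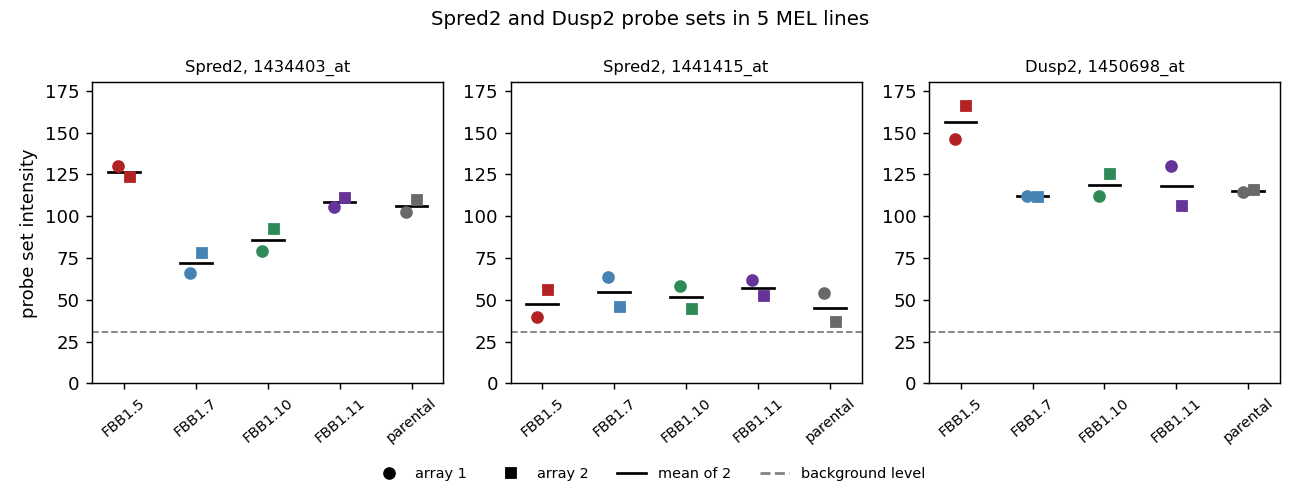
Intensity of both tested Spred2 probe sets and of Dusp2 in the 4 subclones and the parental line, on a linear axis from 0, with circles and squares for the 2 arrays of a line, black bars for their mean and a dashed line at the background level. For 1434403_at the FBB1.5 arrays are highest and the FBB1.7 arrays lowest, with all FBB1.7 and FBB1.10 arrays under both parental ones; for Dusp2 the FBB1.5 arrays stand above all others.

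Mast cell markers also had different levels in these lines: compared with parental cells, FBB1.5 had 1 of 5 tested ones lower, FBB1.7 had 3, FBB1.10 had 3 and FBB1.11 had 2 (limma, adjusted p under 0.05). The summed intensity of 8 mast cell markers was 826 to 6279 in tagged and 5403 to 6538 in parental cells, and most of that sum is the protease gene Mcpt2. Mcpt2 read 5522 and 4454 on the FBB1.5 arrays, 716 and 630 on the FBB1.7 arrays, 2356 and 1836 on the FBB1.10 arrays and 1519 and 1456 on the FBB1.11 arrays, against 5974 and 4933 in parental cells. Tpsb2, a tryptase gene, did not pass in any subclone and stood at 0.35 in FBB1.7. The part of mast cell markers in the Spred2 and Dusp7 values was not tested. The IgE receptor genes Fcer1a and Ms4a2, which define mast cells, and Tpsab1 were at or below background on all 10 arrays. Fewer cells with such a program and less RNA per cell cannot be told apart in these samples.

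Dusp2, a nuclear phosphatase gene first found in activated lymphocytes (chr2:127336159-127338377), was above background on all 10 arrays and was brightest in FBB1.5. It read 146 and 166 on the FBB1.5 arrays, 112 and 112 on the FBB1.7 arrays, 112 and 125 on the FBB1.10 arrays and 130 and 106 on the FBB1.11 arrays, against 115 and 116 in parental cells. Both FBB1.5 arrays exceeded the other 8, which overlapped. FBB1.5 minus FBB1.7 was 0.43 ± 0.13 (SE), 1.34-fold (limma, adjusted p = 0.047), and the F test over the 4 subclones did not pass (adjusted p = 0.13). The pair passed in 2 of the 10 fits with an array left out, those without a parental array, and its adjusted p reached 0.20 among the other 8. All 6 tested genes next to Dusp2 on chromosome 2 were above 0 in the same pair, from 0.18 for Prom2 to 0.36 for Kcnip3. Among these 6, Stard7, a lipid transfer protein gene, passed at 0.29 (adjusted p = 0.043). Over the 89 tested genes within 5 Mb of Dusp2 the median difference was 0.06, against 0.03 over all 12502 tested genes.

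Spred1, a relative of Spred2 with the same role, was read by 7 tested probe sets and none of them passed the F test between subclones. The brightest, Spred1 1423160_at, read 232 and 281 on the FBB1.5 arrays, 254 and 259 on the FBB1.7 arrays, 243 and 231 on the FBB1.10 arrays and 249.96 and 323 on the FBB1.11 arrays, against 311 and 291 in parental cells. Its tagged and parental arrays overlapped through the second FBB1.11 array. The F test gave adjusted p values from 0.27 (1428777_at) to 0.93 (1423162_s_at) over the 7 probe sets. Against the parental line the mean of the subclones was below 0 on all 7, from -0.03 to -0.38, which is 1 gene read several times and not 7 observations. Spred1 1443652_x_at, at -0.38 the lowest of them, read 29.1 to 59.99 in tagged cells, with a median of 44.6, against 54.9 and 72.8 in parental cells.

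The sprouty genes, whose products restrain receptor signalling, had tagged and parental arrays that overlapped. Spry1 read 73.3 and 77.6 on the FBB1.5 arrays, 73.1 and 56.9 on the FBB1.7 arrays, 63.0 and 61.9 on the FBB1.10 arrays and 76.5 and 51.3 on the FBB1.11 arrays, against 64.7 and 56.8 in parental cells. The highest and the lowest array were both tagged, and the subclones did not pass the F test (adjusted p = 0.75). Spry2 1421656_at read 43.3 and 36.4 on the FBB1.5 arrays, 38.9 and 16.3 on the FBB1.7 arrays, 23.6 and 21.6 on the FBB1.10 arrays and 45.1 and 46.3 on the FBB1.11 arrays, against 21.0 and 57.9 in parental cells. The parental pair spanned nearly the whole range, and 4 of the 10 arrays lay below background. No pair of subclones passed for Spry2, and its F test adjusted p was 0.35. Spry2 lies on chromosome 14, whose 440 tested genes had a median difference of 0.24 between FBB1.5 and parental, against 0.01 over all tested genes; Spry2 stood at 0.09 ± 0.29 (SE). Its second probe set was below background on all arrays.

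**Figure D4:**
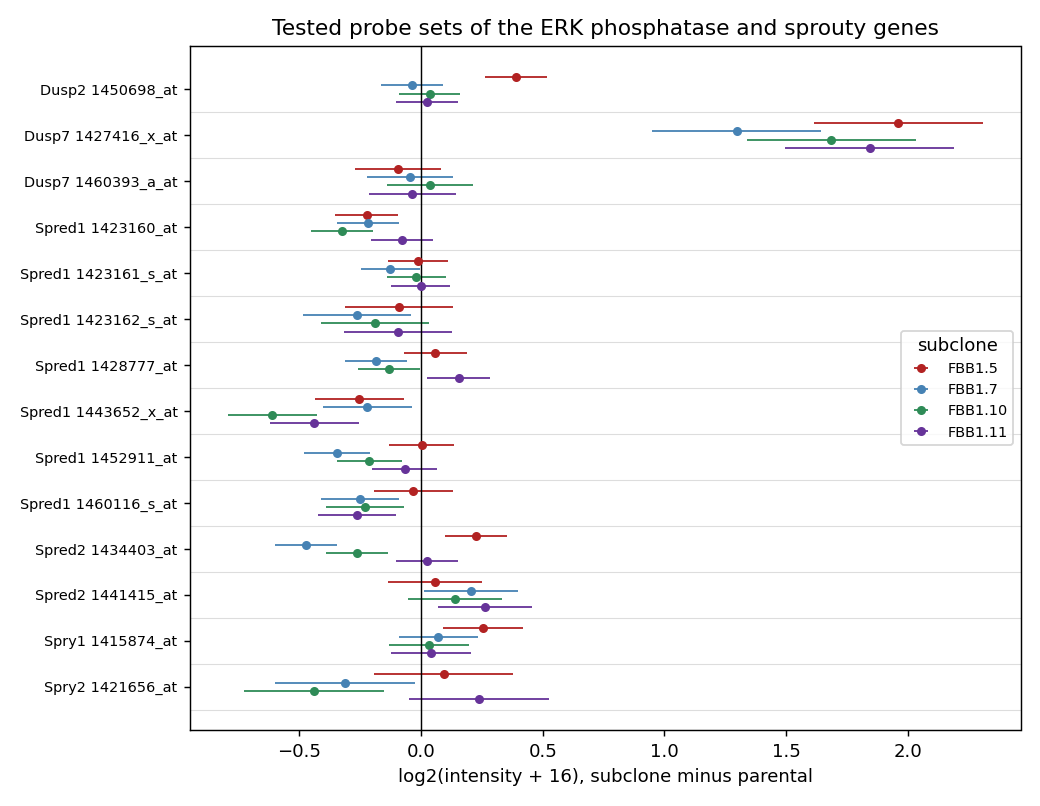
Difference of each subclone from the parental line on the log2(intensity + 16) scale for the 14 tested probe sets, with bars of 1 standard error from the fit of 5 line means. Dusp7 1427416_x_at lies between 1.30 and 1.96 in all 4 subclones, and the other 13 lie between -0.61 and 0.39; the 4 differences of a row share the parental arrays.

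Set side by side, the 13 tested probe sets other than Dusp7 1427416_x_at lay below the parental level more often than above it in FBB1.7 and FBB1.10. FBB1.7 had 11 of 13 below 0 (median -0.22) and FBB1.10 had 9 (median -0.19). In both subclones 7 of those below 0 are of Spred1, which is 1 gene read several times. Apart from Spred1, more probe sets stood above 0 than below it in FBB1.10. Dusp2, Spry1, Dusp7 1460393_a_at and Spred2 1441415_at stood at 0.03 to 0.14 there, against -0.26 for Spred2 1434403_at and -0.44 for Spry2. FBB1.5 had 6 of 13 below 0 and FBB1.11 had 7, both with a median of 0.00. For the mean of the subclones 10 of 13 were below 0 (median -0.11), and 7 of these are of Spred1. Over all tested probe sets 45.9 to 49.4% were below 0 in the 4 subclones, with medians from 0.00 to 0.02. These counts come from the contrast that chose the members and are a description. The 4 comparisons share the parental arrays and are not independent of each other. The median size of the difference between FBB1.5 and FBB1.7 was 0.20 for the members and 0.17 for all tested probe sets.

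Genes whose pattern over the 10 arrays was most like Dusp7 1427416_x_at were Lpcat1, a phospholipid acyltransferase gene (Pearson's r = 0.98), Def8 (0.97), A930009L07Rik (0.96), Abcb10, a mitochondrial transporter of erythroid cells (0.95), and Cers5, a ceramide synthase (0.95). Lpcat1 read 280 and 494 on the FBB1.5 arrays, 265 and 233 on the FBB1.7 arrays, 246 and 392 on the FBB1.10 arrays and 370 and 274 on the FBB1.11 arrays, against 195 and 109 in parental cells. All 5 were lowest on the second parental array, which had the highest actin ratio (1.80). All 5 also read lower on the first FBB1.5 array (ratio of 1.47) than on the second (1.14). In FBB1.10, with ratios of 1.12 and 1.17, all 5 read lower on the first array too. The part of RNA quality in this likeness was not tested, and the correlation is a description over arrays that share the parental pair. Spred2 1434403_at was most like G3bp1, an RNA-binding stress granule gene also on chromosome 11 (r = 0.99), Mxd4 (0.98) and Csnk1g2 (0.98). Mxd4, a partner of Max that opposes Myc, read 674 and 541 on the FBB1.5 arrays, 155 and 178 on the FBB1.7 arrays, 198 and 280 on the FBB1.10 arrays and 347 and 352 on the FBB1.11 arrays, against 382 and 433 in parental cells. Dusp2 was most like Mbnl1 (0.94), Tkt (0.93) and Slc7a1 (0.92).

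Other genes of the pathway were lower in FBB1.7 more often than higher, among them 5 of 18 tested genes listed as receptors and 3 of 19 ERK response genes. Jak2, a kinase gene and not a receptor gene, is on the receptor list and is among these 5. Of 134 genes in 8 lists (receptors, adaptors, Ras proteins, kinases, ERK response genes, other phosphatases, other feedback genes and stress kinases), 99 had a tested probe set, and each was read by its brightest. In FBB1.7, 12 of the 99 were lower and 2 higher in limma (threshold of 0.05 on the adjusted p), against 6.38% lower and 4.28% higher of all tested genes. The counts were 1 lower and 2 higher in FBB1.5 (0.984% and 1.38% of all), 2 and 0 in FBB1.10 (0.864% and 0.936%) and 2 and 0 in FBB1.11 (0.12% and 0.064%). With all tagged arrays set against parental and the line as a random block, 0 of 99 passed (0% of all), and 12 had an unadjusted p under 0.05, against 8.34% of all genes. The fit of 5 line means, which does not count the spread between subclones, gave 7 lower and 1 higher of 99, against 1.94% and 1.82% of all. Cell type markers moved in the same subclone. In FBB1.7 the erythroid genes Ermap, Tfrc and Tal1 were lower (3 of 10 tested, 0 higher, adjusted p = 0.0040, 0.035 and 0.045), as were 3 of 5 mast cell markers. Of 4 tested megakaryocyte markers, Pf4 was higher (limma, adjusted p = 0.022) and Vwf lower (adjusted p = 0.0096) in FBB1.7. The Tfrc call rests on its brightest probe set, and its probe sets disagreed. Another Tfrc probe set read 505 and 416 on the FBB1.7 arrays, against 459 and 192 in parental cells. A dimmer Tfrc probe set read 79.1 and 85.7 on the FBB1.7 arrays, against 104 and 45 in parental cells. On both of these the FBB1.7 and parental arrays overlapped. The summed intensity of the erythroid markers was 8547 to 10971 in tagged and 9543 to 10370 in parental cells. The part of these markers in the pathway counts was not tested. None of 7 other MAP kinase phosphatases and none of 11 Ras proteins and regulators passed in any subclone.

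Igf1r, the receptor of insulin-like growth factor 1, read 361 and 289 on the FBB1.7 arrays, against 690 and 655 in parental cells, and fell by 1.02 ± 0.11 (SE, limma, adjusted p = 9.2e-05). It was also lower in FBB1.10 (adjusted p = 0.0035) and FBB1.11 (adjusted p = 0.0091, and up to 0.14 without an FBB1.11 array). Its 4 probe sets disagreed in all 3 subclones: 2 were lower in FBB1.7 and 1 each in FBB1.10 and FBB1.11, while another was higher, by 0.66 in FBB1.7 (adjusted p = 0.0017), 0.60 in FBB1.10 (adjusted p = 0.015) and 0.78 in FBB1.11 (adjusted p = 0.0065). Sos1, the exchange factor that loads Ras, fell by 1.12 in FBB1.7 (adjusted p = 0.00012) on 1 of 4 probe sets, and Insr, the insulin receptor, by 0.72 (adjusted p = 0.0030) on 1 of 2. Pdgfrb, also listed as a receptor, fell by 1.05 in FBB1.7 (limma, adjusted p = 0.00041), and 2 of its 2 probe sets were lower. Its brightest probe set read 36.7 and 40.8 on the FBB1.7 arrays, not far above background, and did not pass in FBB1.5, FBB1.10 or FBB1.11. Among ERK response genes Junb fell by 0.85 (adjusted p = 0.00090) and Srf by 0.78 (adjusted p = 0.0010) in FBB1.7, Srf on 1 of 2 probe sets. Mknk2, a kinase that ERK activates, fell by 0.41 in FBB1.7 (adjusted p = 0.00086) on 1 of 2 probe sets. Of the feedback genes Lztr1 fell by 0.64 in FBB1.7 (adjusted p = 0.0091) on 1 of 2 probe sets, and the other did not pass (-0.24, limma, adjusted p = 0.30). Il17rd read 45.5 and 47.7 on the FBB1.7 arrays, against 24.5 and 18.3 in parental cells, which are both below background, so it was at least 1.53-fold higher in FBB1.7 (adjusted p = 0.019). The calls of Il17rd and Lztr1 ended without the second parental array or the first FBB1.7 array, and that of Il17rd also without the second FBB1.7 array (adjusted p up to 0.11). In FBB1.5, Myc rose by 0.47 (adjusted p = 0.027) and Mapk8, a stress kinase on chromosome 14, by 0.44 (adjusted p = 0.048). Mapk8 lost its call whichever array was left out, and Myc without the first parental or either FBB1.5 array (adjusted p up to 0.12). Of all 21 calls in the 4 subclones, 8 held whichever array was left out.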

How the data were processed

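RNA of MEL cells was read on 10 single-colour arrays. The authors deposited 1 table of probe set intensities on a linear scale. Not given in the sources used here are their probe summarisation, background correction and scaling. Gene symbols come from the platform annotation, and positions, names and upstream sequences from RefSeq tables of GRCm38.p6; no reference genome was used.

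The scale was log2(intensity + 16), on which changes of dim probe sets come out too small. In all, 64 control probe sets were left out and 25061 probe sets were tested. Lines were fitted as 5 means in limma 3.58.1 (R 4.3.3; 5 residual and 9.92 prior degrees of freedom, intensity trend), with Benjamini-Hochberg adjustment over all tested probe sets within a contrast. Tagged against parental used the line as a random block (consensus correlation 0.211). A lower bound for a fold takes the mean log2 of the arrays of each line, with dim arrays of the lower line raised to the table median. Figures used matplotlib 3.10.9. Members, lists and tests were chosen with earlier results of these data known; neighbouring genes, the region around Dusp2 and motifs were added after the values were seen. Named pathway genes, apart from Jak2, are among the 4 of each list with the smallest p. Functions were tested on simulated data. Numbers of the 2 arrays of a line did not pair them (correlations of deviations between lines -0.16 to 0.18, over 0.1 in 1 of 10). The number of arrays limits the precision.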

Additional observations from a re-analysis of the deposited data

Results flagged for a closer look

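The difference from parental was not alike in the 4 subclones for Spred2 1434403_at (limma's F test, adjusted p = 0.011). Its pairs that passed were FBB1.5 minus FBB1.7 at 0.70, FBB1.5 minus FBB1.10 at 0.49 and FBB1.7 minus FBB1.11 at -0.50 on the log2 scale. Dusp2 passed for FBB1.5 minus FBB1.7 at 0.43. Among the 8 tagged arrays, the first FBB1.5 array of Spred1 1460116_s_at, at 65.2, stood apart from the other 7, with a gap of 0.682 of the whole range, past Dixon's 95% critical value for 8 values. Chance alone puts about 1 in 20 groups past that critical value, and 14 probe sets were looked at. That array also had the higher actin ratio of the FBB1.5 pair (1.47).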

How the results depend on the processing

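The count of member probe sets that differed between subclones was 1 in 19 of 21 alternatives and ranged from 0 to 1 with an array left out. Calls of member probe sets between pairs of subclones numbered 4, against 2 with quantile normalization or with each array centred on its median, 1 with no intensity filter or without the intensity trend, and 0 to 4 with an array left out (0 without the first FBB1.7 array, 4 without either parental array). Differences of each subclone from parental passed for 21 combinations of a pathway gene and a subclone, against 11 with no filter, 8 without the trend and 12 to 19 with an array left out, 12 without the first and 13 without the second FBB1.7 array. For tagged against parental the pathway count was 0 with the line as a random block, 0 in each of the 10 fits with an array left out, 1 without both arrays of FBB1.5 and 8 in the fit of 5 line means. The Dusp7 difference of 1.7 was 1.05 with 64 added in place of 16, 0.95 with the actin ratio as a covariate (chosen after the data were seen) and 1.07 to 2.33 with an array left out. With the replicate number as a block, 1 member probe set differed between subclones, 3 pair calls were made and 19 pathway combinations passed; the Dusp2 pair ended (adjusted p = 0.058). The fits on 8 tagged arrays, and without the arrays with the 2 highest actin ratios, were chosen after the data were seen and kept 1 member between subclones. No direction turned in the alternatives run for the 3 Spred2 pairs that passed, the Dusp2 pair that passed and the Dusp7 1427416_x_at mean against parental; their other differences were not rerun. All probe sets that differed between subclones numbered 1814, and 483 to 2410 over the alternatives. Signals below the table median set no order.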
